A study of Mus musculus with 6 samples.

Results

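In fibro-adipogenic progenitors (FAPs), the Pdgfra-positive mesenchymal progenitor cells of skeletal muscle, 3 genes for proteins that bind hyaluronan, Cd44, Vcan and Tnfaip6, were higher in overloaded than in sham plantaris, by 4.80, 2.55 and 1.60 times, where 15% of all 7207 tested genes were called higher. The call held for Cd44 and Vcan in each of 15 alternative analyses and was lost for Tnfaip6 in 3 of them. Among the 10 genes described here, the synthesis genes with enough counts to test, Has1, Has2 and Ugdh, did not pass the test. In a wider list, which holds further genes for steps before the synthases, Uap1 was called higher and Gfpt2 lower. Those 2 calls held in 11 and 14 of the 15 alternatives. The 10 genes described here were chosen by symbol, for their known part in making, cutting or binding hyaluronan, out of 54100 gene rows in the deposited count table. Each symbol occurred once. Of the 10, 6 had enough counts to be tested. Has3, Hyal1, Hyal2 and Cemip did not.

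Hyaluronan is a long, unbranched sugar polymer of the extracellular matrix, spun out through the plasma membrane by the hyaluronan synthases Has1, Has2 and Has3. The synthases use UDP-glucuronic acid, made by the enzyme Ugdh, and UDP-N-acetylglucosamine. Hyaluronidases (Hyal1, Hyal2) and the secreted protein Cemip take part in its breakdown, CD44 is its main cell surface receptor, versican (Vcan) is a large proteoglycan that forms aggregates with it, and TSG-6 (Tnfaip6) crosslinks it by transferring protein chains onto it. Fibroblasts are a main source of hyaluronan in connective tissue, where the polymer holds water and loosens the matrix.

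The cells were Pdgfra-positive FAPs sorted from the plantaris, a calf muscle, of C57BL/6 mice, 1000 cells to a tube. Both groups share that strain, muscle and sort, and differ in the label sham or overloaded, with 3 libraries each. The age of the mice, the way and length of loading, and whether each library came from its own animal were not stated in the labels, so the p-values reflect only how far these libraries vary, and that may be technical. Pdgfra was present in every library, with 332 to 759 counts.

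The sham libraries held 500402 to 754456 counts in total, the overloaded ones 850857 to 1124210. Levels are given as CPM, counts scaled to 1e6 over the tested genes, with libraries adjusted to each other by edgeR's TMM method. Overloaded library 2 stood apart from the other overloaded libraries in more than 1 respect that touches the results. It had the lowest Pdgfra level of the 6 libraries, 416 CPM. The 8 leukocyte markers summed to 18.8 CPM in it, against 0 and 3.47 CPM in overloaded libraries 1 and 3. Reads assigned to olfactory or vomeronasal receptors, genes of sensory neurons that are called background reads here, made up 1092 CPM of the total in overloaded library 2, against 308 and 232 CPM in overloaded libraries 1 and 3 and 781 to 1819 CPM in sham libraries. In these bulk libraries, fewer cells of a type and less RNA per cell cannot be told apart.

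By edgeR's quasi-likelihood test, at a Benjamini-Hochberg adjusted p under 0.05, 3 of the 6 tested hyaluronan genes were higher and 0 lower in overloaded FAPs, while 29.3% of all 7207 tested genes were called in either direction and 15% were called higher. The median log2 fold change was 0.51 over the 6 genes and -0.02 over all tested genes. Among these 6, the count of lower genes was also 0 at an unadjusted p under 0.05 by edgeR, DESeq2 and limma-voom. Hyal1 and Cemip, which had fewer counts in overloaded libraries, were too rare to be among them. Their unadjusted p by edgeR without the count filter was 0.0684 and 0.0505. Without overloaded library 2, 3 of the genes were still called higher, beside 1059 of 7589 tested genes. With each library's share of background reads as a covariate (the background covariate), 2 were, beside 488 of 7207. Background reads were mostly more frequent in sham libraries, so this covariate and the group cannot be fully told apart. With it the standard error of the log2 fold change of Tnfaip6 went from 0.20 to 0.27.

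**Figure D1:**
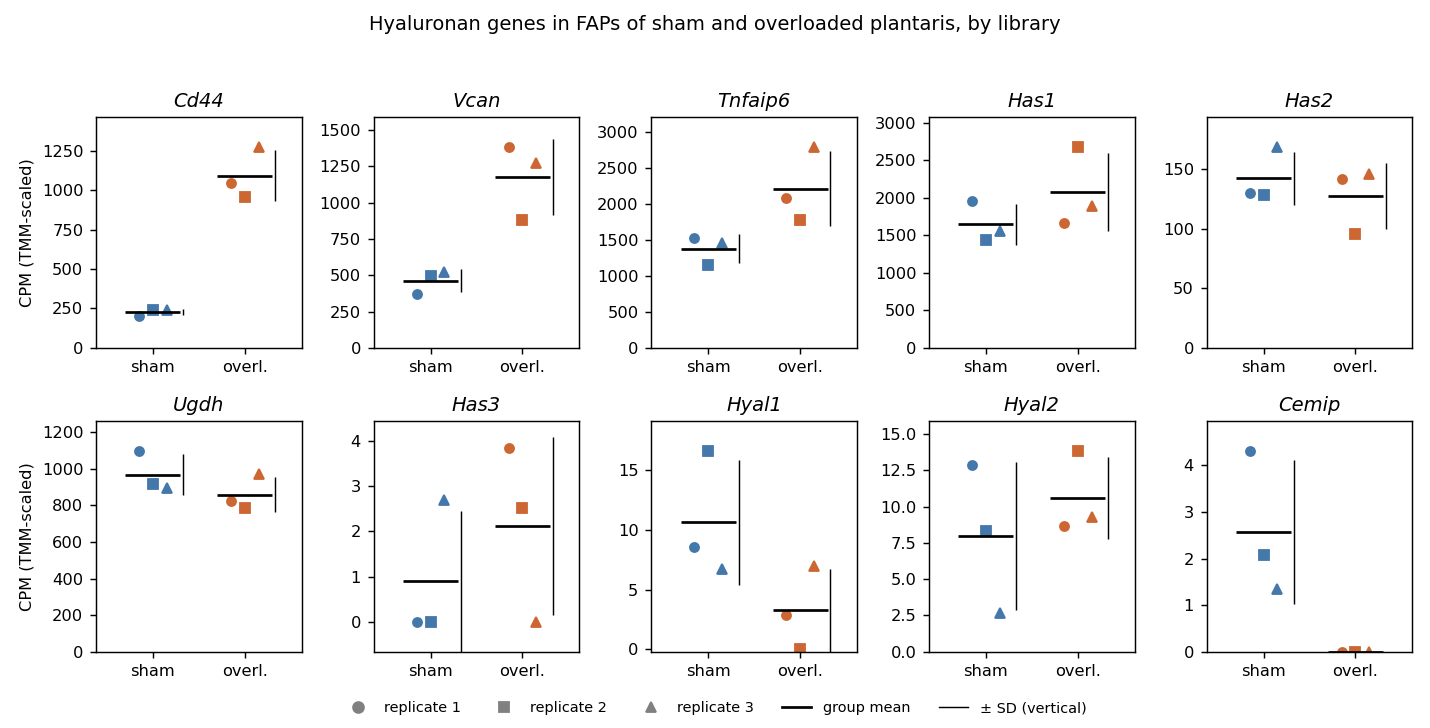
Level of each of the 10 hyaluronan genes in CPM (vertical axes, linear, each with its own range) in 3 sham and 3 overloaded libraries, with symbols for replicate numbers, a thick line for the group mean and a thin vertical line for the SD. The groups separate for Cd44, Vcan and Tnfaip6 and overlap for Has1, Has2 and Ugdh, and the last 4 panels hold genes at a group mean under 11 CPM.

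Has1, which encodes the synthase with the most counts in these cells, was at 1952, 1431 and 1561 CPM in sham libraries 1 to 3 and at 1668, 2670 and 1892 CPM in overloaded libraries 1 to 3. The groups overlapped, and the highest value was in overloaded library 2. The means were 1648 ± 271 and 2077 ± 526 CPM (SD, n = 3 per group). The log2 fold change was 0.33, its standard error (SE) 0.21 and its adjusted p by edgeR 0.236. Its 95% interval, expressed as a ratio of overloaded to sham, reached from 0.942 to 1.68. Over 15 alternatives the log2 fold change ran from 0.13, without overloaded library 2, to 0.64, with the background covariate (edgeR adjusted p = 0.115), and Has1 was called in none.

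Has2, the synthase needed for heart development in the embryo, was at 130.3, 129 and 168 CPM in sham and at 141, 95.3 and 146 CPM in overloaded libraries. Here overloaded library 2 was the lowest of the 6, and the groups overlapped. The log2 fold change was -0.16 (edgeR adjusted p = 0.659, SE 0.24), with a 95% interval of the ratio from 0.641 to 1.25. Its direction was not stable, since the log2 fold change was 0.0016 without sham library 3 and 0.03 without overloaded library 2, but -0.64 with the background covariate (edgeR adjusted p = 0.215). An exon of Has2 shares 182 bases with Has2os, a gene on the opposite strand, and without a stated strand setting their reads cannot be told apart.

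Has3, the third synthase, had 0, 0 and 2 counts in sham and 4, 2 and 0 counts in overloaded libraries. The ratio of overloaded to sham was 2.14, with an exact 95% counting interval of 0.382 to 21.6. Such intervals cover counting error only. Per kilobase of exon, Has1 stood between 317 and 591 CPM, Has2 between 22.5 and 39.7 CPM and Has3 between 0 and 0.603 CPM over all 6 libraries, so the 3 synthases kept the same order in every library. The library protocol that the labels cite tags transcripts near the 3' end, so dividing by length may overcorrect. The order was the same in CPM without it. Has1 and Has2 did not move together in overloaded library 2, where Has2 made up 3.57 counts per 100 Has1 counts, against 8.48 and 7.70 in overloaded libraries 1 and 3 and 6.68 to 10.8 in sham libraries.

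Ugdh, which oxidises UDP-glucose to the UDP-glucuronic acid that the synthases consume, was at 1094, 915 and 892 CPM in sham and at 823, 784 and 968 CPM in overloaded libraries. Sham library 1 was the highest and the groups overlapped. The log2 fold change was -0.17 (edgeR adjusted p = 0.550, SE 0.19), and the 95% interval of the ratio ran from 0.675 to 1.17. Over 15 alternatives the log2 fold change lay between -0.28 and -0.04. The intervals of Has1, Has2 and Ugdh each include a ratio of 1.

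The breakdown genes were all rare. Hyal1, a lysosomal hyaluronidase, had 6, 8 and 5 counts in sham and 3, 0 and 6 counts in overloaded libraries, and Hyal2, a hyaluronidase anchored at the cell surface, had 9, 4 and 2 and then 9, 11 and 8 counts. Both genes overlapped between the groups. In a fit without the count filter, over 28251 genes, the log2 fold change was -1.50 (edgeR adjusted p = 0.404, SE 0.82) for Hyal1 and 0.49 (edgeR adjusted p = 0.650, SE 0.65) for Hyal2. Exons of Hyal1 share 1920 bases with Naa80 and 159 bases with Hyal3 on the same strand, so its few counts are uncertain.

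Cemip, a secreted hyaluronan-binding protein required for hyaluronan breakdown in skin fibroblasts, had 3, 1 and 1 counts in sham and 0 in every overloaded library. The exact 95% counting interval of the ratio of overloaded to sham reached up to 0.777. It was not called in the fit without the count filter (edgeR adjusted p = 0.344). Background reads were also more frequent in 2 of the 3 sham libraries than in any overloaded library, and their part in these few counts was not tested.

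The genes called among the 10 were those for binding proteins. Cd44, which encodes the receptor that ties hyaluronan to the cell surface, was at 203, 239 and 241 CPM in sham and at 1046, 958 and 1271 CPM in overloaded libraries. The groups were far apart, with the lowest overloaded library several times above the highest sham library. The means were 228 ± 21.02 and 1092 ± 162 CPM (SD, n = 3 per group). Cd44 rose on the log2 scale by 2.26 (edgeR adjusted p = 1.09e-09, SE 0.21), a value that stayed between 2.05 and 2.37 in 15 alternatives (other scalings, tools and count filters, thinning, a replicate block, the background covariate and each library left out). Leukocytes also carry CD44. The 8 leukocyte markers summed to 9.42 to 18.7 CPM in sham and 0 to 18.8 CPM in overloaded libraries, and Lyz2, Adgre1 and Cd52 were at 0 counts in all 6 libraries.

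Vcan, the gene for versican, was at 371, 496 and 519 CPM in sham and at 1380.3, 884 and 1272 CPM in overloaded libraries. Overloaded library 2 was the lowest of its group but still above every sham library. Vcan rose from 462 ± 79.8 to 1179 ± 261 CPM (log2 fold change 1.35, edgeR adjusted p = 1.25e-05, SE 0.21). The log2 fold change was 0.95 with the background covariate (edgeR adjusted p = 0.0243, range over 15 alternatives 2.52e-09 to 0.0243) and 1.54 without overloaded library 2.

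Tnfaip6, the gene for TSG-6, was at 1522, 1153 and 1453 CPM in sham and at 2077, 1769 and 2778 CPM in overloaded libraries. The groups did not overlap, but the lowest overloaded library lay close to the highest sham library. Tnfaip6 rose from 1376 ± 196 to 2208 ± 517 CPM (log2 fold change 0.68, edgeR adjusted p = 0.0113, SE 0.20). The call did not hold without sham library 2 (log2 fold change 0.57, edgeR adjusted p = 0.0933), without overloaded library 3 (0.50, adjusted p = 0.0801) or with the background covariate (0.30, adjusted p = 0.526), and over 15 alternatives the adjusted p ranged from 0.00255 to 0.526. Sham and overloaded values were apart for 3 of the 6 tested hyaluronan genes and for 41.5% of all tested genes.

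Promoter windows are shown for the 3 genes that rose and for Has1, the abundant synthase that was not called, so that their letters can be read side by side. RefSeq (GRCm38.p6) gave a window of 300 bases, 250 before and 50 after the gene's RefSeq start, for 8 of the 10 genes. Each is printed 5' to 3' on the gene's own strand, and capitals mark matches on either strand to the AP-1, CRE, TEAD and TATA box letters given next.
Tnfaip6, chr2:52037863-52038162, plus strand: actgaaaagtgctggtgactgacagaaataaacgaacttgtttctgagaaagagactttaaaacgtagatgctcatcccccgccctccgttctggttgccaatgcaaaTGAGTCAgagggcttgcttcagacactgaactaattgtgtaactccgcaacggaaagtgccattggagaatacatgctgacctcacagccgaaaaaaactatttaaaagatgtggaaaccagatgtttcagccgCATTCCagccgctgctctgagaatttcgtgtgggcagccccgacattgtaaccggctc
Cd44, chr2:102901616-102901915, minus strand: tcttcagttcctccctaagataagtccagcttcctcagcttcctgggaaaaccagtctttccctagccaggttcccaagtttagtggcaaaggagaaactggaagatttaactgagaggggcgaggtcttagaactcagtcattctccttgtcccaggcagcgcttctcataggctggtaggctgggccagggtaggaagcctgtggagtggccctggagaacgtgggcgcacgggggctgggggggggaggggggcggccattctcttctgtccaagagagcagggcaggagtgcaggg
Vcan, chr13:89742463-89742762, minus strand: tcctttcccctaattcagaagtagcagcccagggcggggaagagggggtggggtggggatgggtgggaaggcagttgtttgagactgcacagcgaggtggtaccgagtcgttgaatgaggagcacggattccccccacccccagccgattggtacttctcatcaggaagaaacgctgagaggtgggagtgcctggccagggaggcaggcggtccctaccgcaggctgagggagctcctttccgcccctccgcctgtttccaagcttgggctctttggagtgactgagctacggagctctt
Has1, chr17:17855139-17855438, minus strand: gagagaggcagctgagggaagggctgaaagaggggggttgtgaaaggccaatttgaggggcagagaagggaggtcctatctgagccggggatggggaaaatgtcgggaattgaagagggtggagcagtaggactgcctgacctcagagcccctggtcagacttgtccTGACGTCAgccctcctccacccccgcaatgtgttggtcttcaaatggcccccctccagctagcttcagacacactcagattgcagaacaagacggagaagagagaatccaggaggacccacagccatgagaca

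The AP-1 letters TGANTCA were in 7.81% of 32851 promoter windows of the same length. Of the 8 hyaluronan genes only Tnfaip6 held them, starting 142 bases before the RefSeq start site. The CRE letters TGACGTCA were in 1.79% of all windows and in Has1 alone of the 8, starting 83 bases before its RefSeq start site. The TEAD letters GGAATG were in 14.7% of all windows and in Tnfaip6 and Hyal2, and the TATA box letters TATAAA were in 13.6% and in Cemip alone. A GC box, CCGCCC, was in 35.7% of all windows and in 7 of the 8. A loose NF-kappaB pattern (GGG and CC with any 5 bases between, which can overlap a GC box) was in 50.8% and in 6 of the 8. Both strands were searched, and these last matches were left in lower case. In the windows of Cd44 and Vcan none of the other 4 motifs was found. The matches describe the letters only. The RefSeq start can differ from the start in GENCODE M21, the annotation used for the gene positions below. For Tnfaip6 the GENCODE start, 52038009, lies inside the window, after the AP-1 match and before the TEAD match. The Hyal2 window, 107568913 to 107569212 on chromosome 9, lies inside the GENCODE bounds of the gene, which begin at 107567945.

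Within a library, the ratio of 2 genes does not depend on the scaling between libraries, and 11 such ratios were computed after the data had been seen. Per 100 counts of Ugdh there were 18.6, 26.1 and 27.0 counts of Cd44 in sham and 127, 122 and 131 in overloaded libraries. Per 100 counts of Has2 there were 285, 385 and 309 counts of Vcan in sham and 976, 928 and 873 in overloaded libraries. The groups stood apart for each of the 3 binding genes over Ugdh and over Has2, at an exact two-sided permutation p = 0.1, the smallest that 3 libraries against 3 can give (0.138 after Benjamini-Hochberg adjustment over the 11 ratios). The 3 binding genes had already been called higher, and Ugdh and Has2 not called, in these same libraries. These ratios therefore largely restate those results and are no separate support.

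Over Has1 the picture was less even. Cd44 was at 10.4, 16.7 and 15.4 counts per 100 Has1 counts in sham and at 62.7, 35.9 and 67.2 in overloaded libraries (exact permutation p = 0.1, adjusted 0.138). For Vcan the values were 19.0, 34.6 and 33.3 in sham and 82.8, 33.1 and 67.2 in overloaded libraries, and the groups overlapped through overloaded library 2 (exact permutation p = 0.3, adjusted 0.367). Tnfaip6 also overlapped through that library, which was at 66.3 counts per 100 Has1 counts against 78.0 to 93.1 in sham and 125 and 147 in the other overloaded libraries (exact permutation p = 0.4). Ugdh, a synthesis gene that was not called, also stood apart over Has1. It was at 56.1, 63.9 and 57.2 counts per 100 Has1 counts in sham and at 49.4, 29.4 and 51.2 in overloaded libraries (exact permutation p = 0.1, adjusted 0.138). Separation of a ratio was thus not limited to the binding genes. With 3 libraries against 3, the exact permutation test could not take any of the 11 ratios, Cd44 over Has1 included, below p = 0.1.

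**Figure D2:**
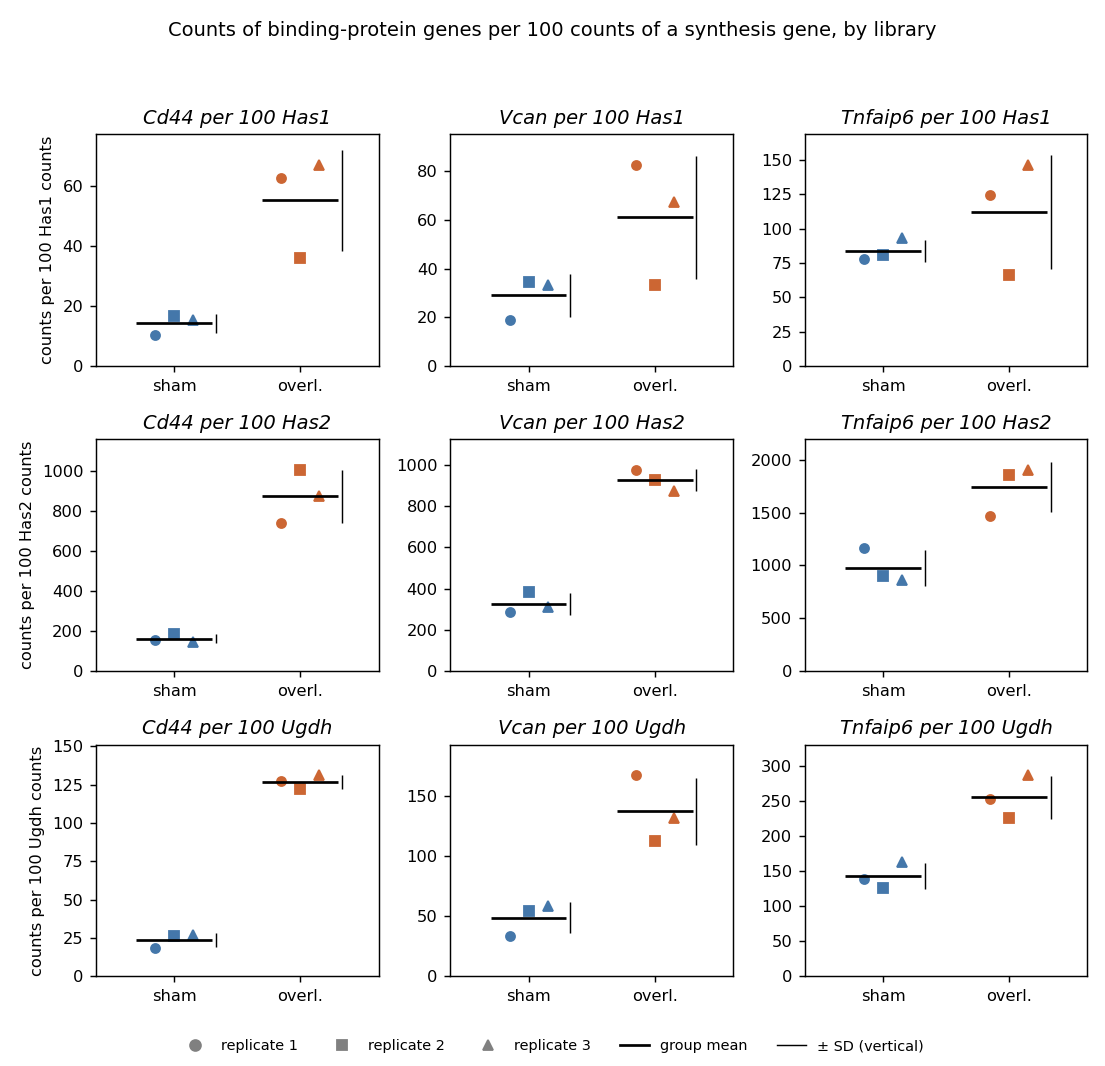
Counts of Cd44, Vcan and Tnfaip6 per 100 counts of Has1 (top row), Has2 (middle row) or Ugdh (bottom row) in each library (vertical axes, linear from 0), with symbols for replicate numbers, a thick line for the group mean and a thin vertical line for the SD. Sham and overloaded libraries separate in every panel of the lower rows, while in the top row overloaded library 2 (square) lies within the sham range for Vcan, below it for Tnfaip6 and above it for Cd44.

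Of a wider list of 53 other genes of the pathway, 26 could be tested, and 6 were higher, 3 lower and 17 not called by edgeR at an adjusted p under 0.05, beside 15% higher and 14.3% lower among all tested genes. Without sham library 3, 3 of 28 tested were higher, beside 878 of 7848 over all tested genes. Without overloaded library 2, 8 of 28 were, beside 1059 of 7589. With the background covariate 4 of 26 were higher and 1 lower, beside 488 higher and 381 lower of 7207.

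In the steps before the synthases, 9 of 12 genes were tested, of which 2 rose, 1 fell and 6 were not called. Over all tested genes, 15% were called higher and 14.3% lower. Gfpt2, an isoform of the enzyme that commits fructose 6-phosphate to amino sugar synthesis, was at 942, 829.6 and 877 CPM in sham and at 595, 497 and 524 CPM in overloaded libraries, with no overlap. It fell by 0.71 on the log2 scale (edgeR adjusted p = 0.00537, SE 0.19), and was not called with the background covariate (log2 fold change -0.81, edgeR adjusted p = 0.0611, range over 15 alternatives 0.000955 to 0.0611). Its isoform Gfpt1 had a log2 fold change of the other sign, 0.56 (SE 0.24), that was not called (edgeR adjusted p = 0.0772). Gfpt1 was called without overloaded library 2 (log2 fold change 0.69, edgeR adjusted p = 0.0493, range over 15 alternatives 0.0493 to 0.565), and its log2 fold change was 0.35 with the background covariate.

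Uap1, which makes UDP-N-acetylglucosamine in the last step before the synthases, was at 959, 854 and 762 CPM in sham and at 1378, 1257 and 1178 CPM in overloaded libraries. It rose on the log2 scale by 0.57 (edgeR adjusted p = 0.0262, SE 0.19), but was not called without sham library 2 (log2 fold change 0.57, adjusted p = 0.0830), sham library 3 (0.51, 0.123) or overloaded library 1 (0.53, 0.0585), nor with the background covariate (0.64, 0.131). Gpi1, the glycolytic enzyme that supplies fructose 6-phosphate, rose by 0.71 (edgeR adjusted p = 0.0248, SE 0.24). It was not called without sham library 1 (log2 fold change 0.64, adjusted p = 0.0806), sham library 3 (0.76, 0.0566) or overloaded library 3 (0.68, 0.0682), nor with the covariate (0.74, 0.155). Where the call was lost, the log2 fold change of either gene had moved by less than its SE. Over their 15 alternatives the adjusted p ranged from 0.0106 to 0.131 for Uap1 and from 0.0207 to 0.155 for Gpi1. Exons of Gpi1 share 741 bases with a long noncoding RNA gene on the opposite strand. Hk2, a hexokinase, and Ugp2, which makes UDP-glucose, had log2 fold changes of 0.32 (edgeR adjusted p = 0.285, SE 0.22) and -0.28 (edgeR adjusted p = 0.370, SE 0.22).

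Among 12 other genes for breakdown and uptake, 3 could be tested, and 1 rose, where 15% of all tested genes were called higher. Cemip2, a membrane protein related to Cemip that has been described as a cell surface hyaluronidase, was at 12.9, 41.5 and 30.9 CPM in sham and at 106, 147 and 213 CPM in overloaded libraries. The groups were well separated. Cemip2 rose on the log2 scale by 2.48 (edgeR adjusted p = 3.85e-06, SE 0.33), and stayed called in all 15 alternatives, at 2.15 to 2.80. Its exons share 97 bases with an antisense gene.

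Among 19 further binding proteins and partners of TSG-6, 6 could be tested, of which 1 rose, 1 fell and 4 were not called. The shares over all tested genes were 15% higher and 14.3% lower. Layn, which encodes layilin, a hyaluronan receptor of the cell membrane, was at 8.59, 12.4 and 13.5 CPM in sham and at 66.4, 48.9 and 60.1 CPM in overloaded libraries. It rose on the log2 scale by 2.34 (edgeR adjusted p = 1.34e-05, SE 0.37). Itih5, a member of the inter-alpha-trypsin inhibitor heavy chain family, from which TSG-6 transfers chains to hyaluronan, was at 842, 1033 and 1173 CPM in sham and at 375, 292 and 206 CPM in overloaded libraries. It fell by 1.80 on the log2 scale (edgeR adjusted p = 3.02e-07, SE 0.22). Layn and Itih5 were called in all 15 alternatives.

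Ptx3, a secreted pentraxin that joins TSG-6 and heavy chains in hyaluronan-rich matrix, was at 1483, 1607 and 1566 CPM in sham and at 1556, 1764 and 3484 CPM in overloaded libraries. Overloaded library 3 stood well above the other 5 libraries, and overloaded library 1 lay within the sham range. The log2 fold change was 0.55 (edgeR adjusted p = 0.0899, SE 0.24). Ptx3 was called without overloaded library 1 (log2 fold change 0.79, adjusted p = 0.0170), without overloaded library 2 (0.72, 0.0247) and with no count filter (0.63, 0.0309). It was at 0.12 both without overloaded library 3 (adjusted p = 0.732) and with the background covariate (adjusted p = 0.853), and over 15 alternatives the adjusted p ranged from 0.0170 to 0.853.

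Of 6 listed proteases that cut versican, 4 were tested, of which 1 rose, 1 fell and 2 were not called, beside the 15% higher and 14.3% lower of all tested genes. Adamts4 was at 252, 207 and 182 CPM in sham and at 420.3, 416 and 261 CPM in overloaded libraries, a rise of 0.78 on the log2 scale (edgeR adjusted p = 0.00830, SE 0.22). It was not called without sham library 3 (log2 fold change 0.69, adjusted p = 0.0587, range over 15 alternatives 0.00168 to 0.0587).

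Adamts5 was at 1155, 1031 and 1079 CPM in sham and at 534, 749.9 and 770.4 CPM in overloaded libraries, and fell by 0.67 (edgeR adjusted p = 0.0108, SE 0.20). It was not called without sham library 1 (log2 fold change -0.59, adjusted p = 0.0531), without overloaded library 1 (-0.49, 0.0842), with no count filter (-0.59, 0.0671) or with the background covariate (-0.60, 0.170), with a range over 15 alternatives from 0.00480 to 0.170. Adamts1 had a log2 fold change of 0.22 (edgeR adjusted p = 0.442, SE 0.20).

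Of the 4 genes Ezr, Rdx, Msn and Nf2, for the proteins that link CD44 to actin and their regulator merlin, 1 rose and 3 were not called. Among all tested genes 15% were called higher. Msn, encoding moesin, was at 150.3, 245 and 194 CPM in sham and at 373, 382 and 389 CPM in overloaded libraries. It rose on the log2 scale by 0.97 (edgeR adjusted p = 0.000897, SE 0.22) and was called in all 15 alternatives. Its exons share 136 bases with a small noncoding RNA gene on the opposite strand. Rdx, encoding radixin, had a log2 fold change of -0.14 (edgeR adjusted p = 0.659, SE 0.20).

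**Figure D3:**
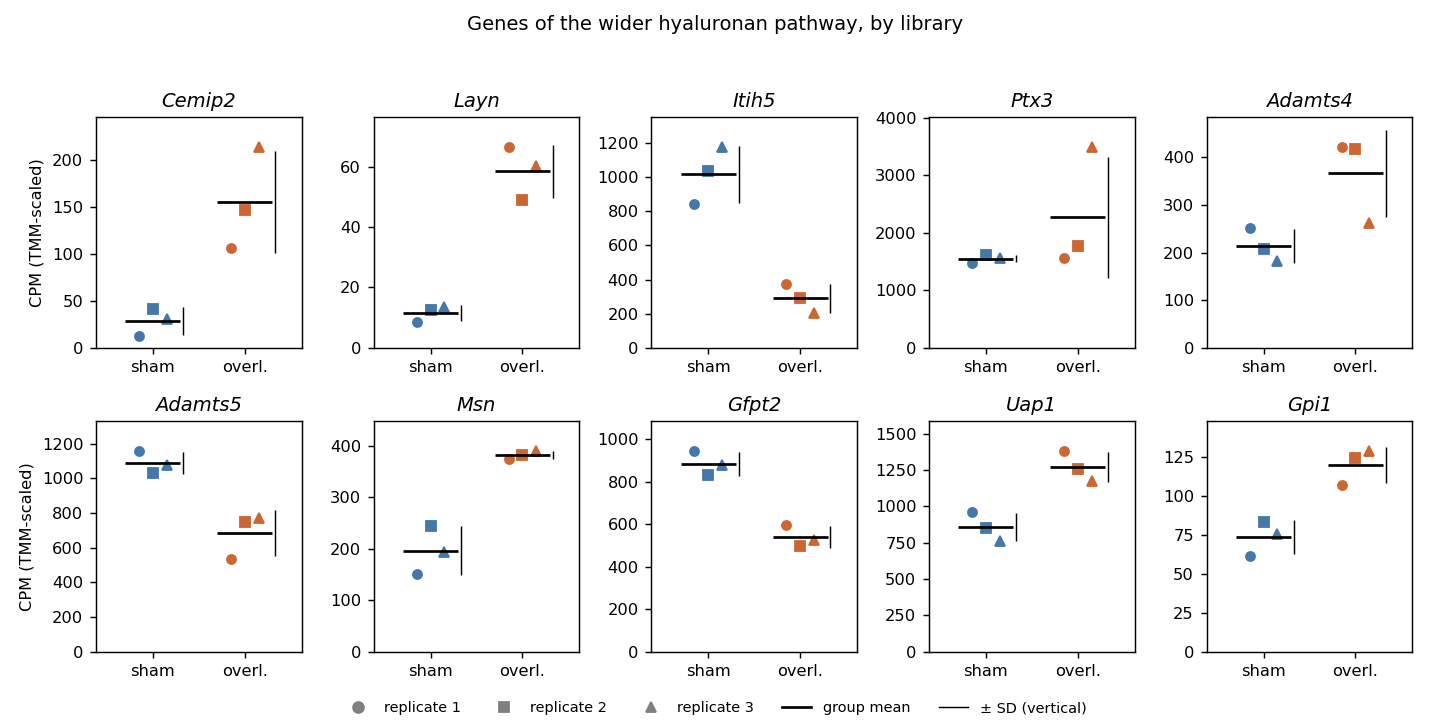
Level in CPM (vertical axes, linear from 0) of 10 genes of the wider pathway in 3 sham and 3 overloaded libraries, with symbols for replicate numbers, a thick line for the group mean and a thin vertical line for the SD. Cemip2, Layn, Msn, Adamts4, Uap1 and Gpi1 stand higher and Itih5, Gfpt2 and Adamts5 lower in every overloaded library. The spread of Ptx3 comes from overloaded library 3.

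**Figure D4:**
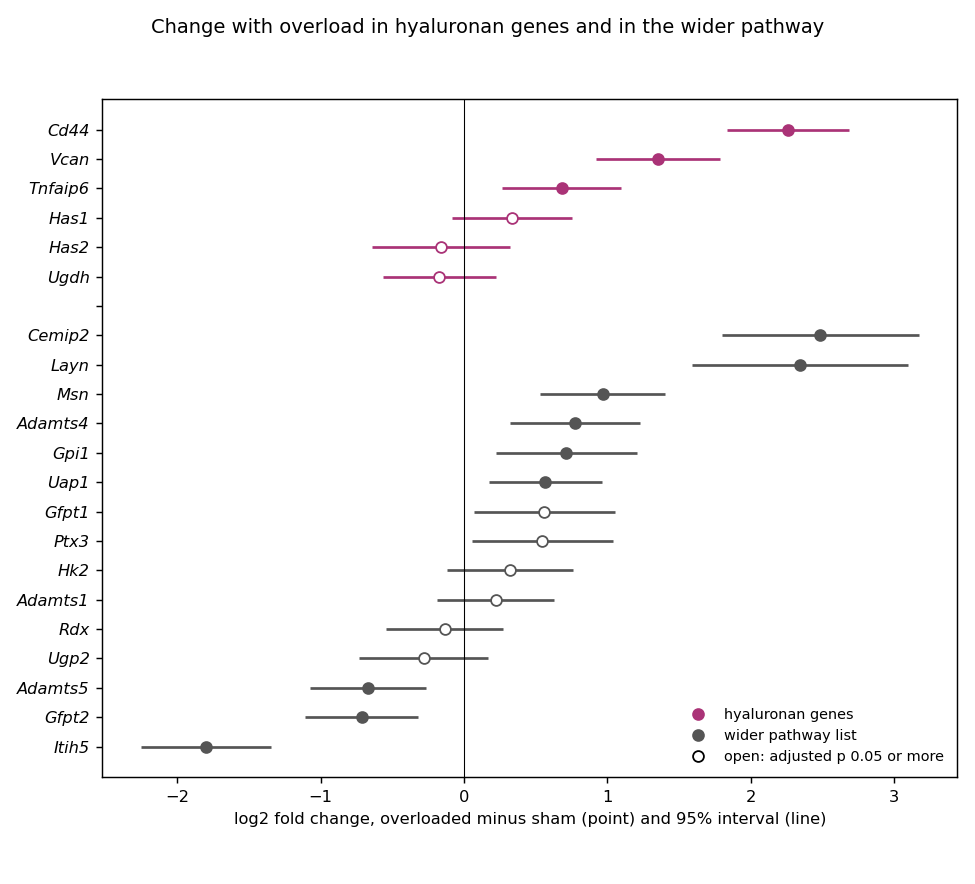
Log2 fold change of overloaded over sham (horizontal axis, points) with its 95% interval (lines) for the 6 tested hyaluronan genes (top) and the 15 genes named from the wider list (bottom). Filled points passed an adjusted p of 0.05, and the intervals of Has1, Has2 and Ugdh include 0 while those of Cd44, Vcan and Tnfaip6 do not.

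Endothelial markers (6 genes) summed to 122 to 216 CPM in sham and 33.5 to 71.5 CPM in overloaded libraries. Of the 6, only Tek, an angiopoietin receptor, did not overlap between the groups, at 127, 106 and 125 CPM in sham and 31.7, 23.8 and 25.4 CPM in overloaded libraries (log2 fold change -2.13, edgeR adjusted p = 5.59e-07). Flt1 was not called (edgeR adjusted p = 0.778), and Pecam1, Cdh5, Kdr and Emcn had too few counts to test. Itih5, Gfpt2 and Adamts5 were lower in the same libraries as Tek, and its part in those falls was not tested. Markers of pericytes and smooth muscle (6 genes) summed to 89.2 to 159 CPM in sham and 91.4 to 137 CPM in overloaded libraries. Myogenic markers (6 genes) summed to 20.0 to 43.6 and 10.4 to 25.1 CPM, tenocyte markers (3 genes) to 2.07 to 14.3 and 11.3 to 18.5 CPM, lymphatic markers (3 genes) to 4.04 to 18.6 and 5.02 to 6.73 CPM, and Schwann cell markers (3 genes) to 0 to 6.22 and 0 to 2.51 CPM. The 8 FAP markers did not move one way. The collagen genes Col1a1 and Col3a1 were called higher (log2 fold changes 1.42 and 1.34), Dcn, Pi16 and Dpp4 were called lower (-1.31, -1.67 and -2.12), and Pdgfra, Lum and Ly6a were not called. Pdgfra, the gene for the sorted surface protein, was at 769, 780 and 1021 CPM in sham and at 607, 416 and 759 CPM in overloaded libraries, so the groups did not overlap (log2 fold change -0.53, edgeR adjusted p = 0.0624). The part of these shifts in the hyaluronan results was not tested.

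**Figure D5:**
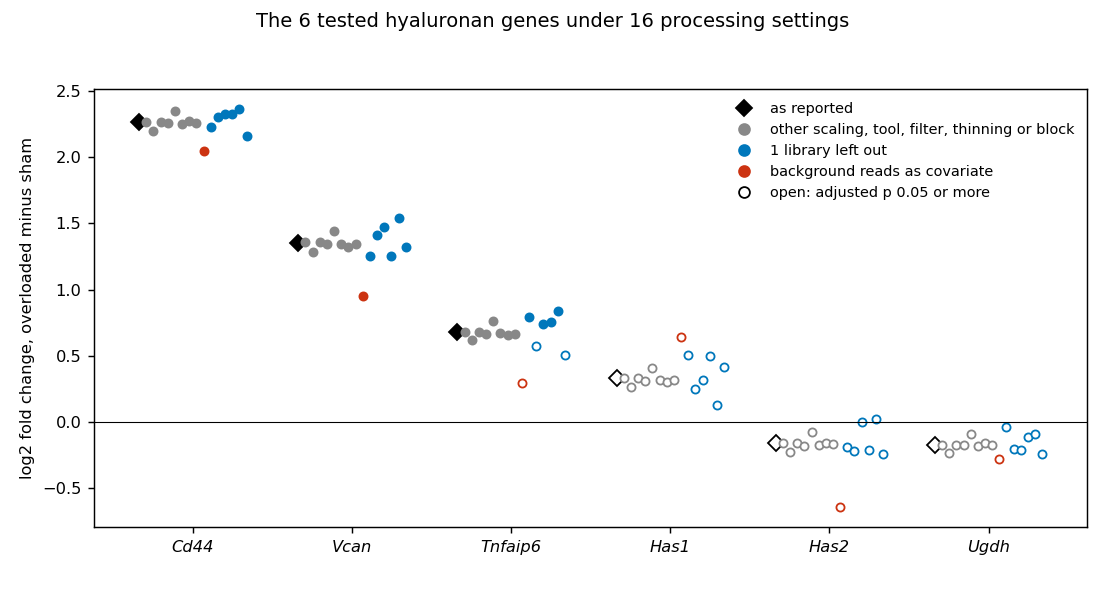
Log2 fold change of overloaded over sham (vertical axis) for the 6 tested hyaluronan genes as reported (diamond) and under 15 alternatives (circles, coloured by kind), filled where the adjusted p was under 0.05. Cd44 and Vcan stay filled throughout, Tnfaip6 loses its call in 3 alternatives, and Has1, Has2 and Ugdh are open throughout.

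On GRCm38 (GENCODE M21), the synthesis genes lie at chromosome 17, 17843323 to 17855205 (Has1), chromosome 15, 56665627 to 56694539 (Has2), chromosome 8, 106870242 to 106884566 (Has3) and chromosome 5, 65413221 to 65435949 (Ugdh). Hyal2 (chromosome 9, 107567945 to 107572779) and Hyal1 (chromosome 9, 107576927 to 107581710) are neighbours, and Cemip lies at chromosome 7, 83932857 to 84086502. The binding genes lie at chromosome 2, 102811141 to 102901665 (Cd44), chromosome 2, 52038009 to 52056686 (Tnfaip6) and chromosome 13, 89655312 to 89742509 (Vcan). Exons of Cd44, Tnfaip6, Vcan, Has1, Hyal2 and Cemip overlap those of no other annotated gene. Exons of Ugdh share 158 bases with a predicted gene on the same strand, and those of Has3 share 352 bases with Chtf8 on the opposite strand.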

How the data were processed

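Messenger RNA was measured in 6 libraries, 3 sham and 3 overloaded, grouped by the treatment label. The authors deposited raw counts per gene, whole numbers with no normalisation. The submitters' processing notes name GRCm38 as the build and, as tools, featureCounts 2.0.1, HISAT2 2.2.1, DESeq2 1.28.1 and Trim Galore 0.6.6. The strand setting, annotation release and handling of molecular identifiers were not given in the sources used here.

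From these counts, genes passing filterByExpr (minimum count 10, minimum total 15) were kept, and 7207 genes were fitted together with edgeR 4.0.16 in R 4.3.3 (TMM scaling, robust quasi-likelihood F test, Benjamini-Hochberg adjustment over all of them). The standard error is the size of the log2 fold change divided by the square root of F. Count ratios were compared by exact permutation. DESeq2 1.42.0, limma-voom 3.58.1 and other settings served as alternatives.

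The 10 genes, the wider list, the markers and the alternatives were chosen with earlier results of these data known. Of the wider list, genes were named if called (up to 5 per class by adjusted p) or if their mean was at least 50 CPM. All 54100 identifiers were found in GENCODE M21.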

Additional observations from a re-analysis of the deposited data

How the results depend on the processing

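Under 15 alternatives (2 scalings, 2 tools, 2 count filters, thinning to the smallest total, a replicate block, a background covariate and each library left out), Cd44 and Vcan were called higher in all, and Has1, Has2 and Ugdh in none. Tnfaip6 was called in 12, with a log2 fold change of 0.30 with the background covariate and 0.50 to 0.84 with 1 library left out. Has2 had a log2 fold change between -0.242 and 0.0254 with 1 library left out (0.0016 without sham library 3) and -0.64 with the covariate. The wider list had 3 to 8 higher genes with 1 library left out, and 1 lower gene with the covariate. Over all genes the covariate left 488 higher and 381 lower, against 1084 and 1027. The cause of these shifts was not tested. Background reads and group partly coincide, so their parts cannot be told apart. With the covariate the SE went from 0.19 to 0.27 for Uap1 and from 0.19 to 0.28 for Gfpt2. Both lost their calls although their log2 fold changes moved away from 0, from 0.57 to 0.64 and from -0.71 to -0.81. With the replicate number as a block (replicate block), 1043 genes were higher and 993 lower, and the 3 hyaluronan genes called higher were again 3 (Tnfaip6 adjusted p = 0.0152 by edgeR). The numbers share no stated origin, the correlations of same-numbered libraries were 0.0082, 0.014 and 0.015, and not every library correlated best with its own number. Leaving out 1 library moved the log2 differences of the 11 count ratios without a change of sign. Depth limits Has3, Hyal1, Hyal2 and Cemip, where 1 count is worth 0.962 to 2.07 CPM.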
